A study of Mus musculus with 6 samples.

Results

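Aminoacyl-tRNA synthetases are the enzymes that load each tRNA with its amino acid. Of 36 mouse synthetase gene names sought, 35 were found on the array among 18193 named genes, either under the name itself or under the same name with a final 1, as for Mars1. They comprised 19 cytosolic enzymes and 16 mitochondrial enzymes, whose gene names end in 2. Each gene was read from the probe set with the highest mean over all 6 arrays. Dars is not analysed here. None of the 35 genes differed between label-retaining and non-label-retaining haematopoietic stem cells after adjustment for all probe sets on the array. Cytosolic and mitochondrial enzymes alike were centred close to equal levels in both groups. Groups did not overlap for 4 of the 35 genes, near the share of 8.32% over all genes. The 4 were Iars, Rars and Yars, lower in label-retaining cells, and Kars, higher in them.

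The cells were haematopoietic stem cells (HSCs) from the bone marrow of SCL-tTA H2B-GFP transgenic mice. In these mice the tTA-S2 transactivator, placed at the endogenous scl locus, drives H2B-GFP, in which green fluorescent protein is joined to a histone, so the label is made where that locus is active, in HSCs and early progenitors. All 6 samples carried the same transgenes and were collected after a chase of 170 days with doxycycline, which stops new fusion protein. All were sorted as CD34 Neg, Lin Neg, Sca1+, cKit+, CD150+ and CD48 Neg. The LRC group (label-retaining cells, 3 samples) was GFP+, and the non-LRC group (3 samples) was GFP Neg. A GFP Neg cell may have diluted its label by dividing or may never have been labelled, and the age of the mice and whether a sample held 1 mouse or several are not given in the sources used here. The labels call the replicates independent and biological.

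In the cytosol most synthetases act alone, but several are held together with 3 scaffold proteins in a multi-synthetase complex. A second set of nuclear genes encodes enzymes that charge tRNAs inside mitochondria, while Kars and Gars each supply both compartments. Uncharged tRNA activates the kinase GCN2, which phosphorylates the initiation factor eIF2 and thereby favours translation of ATF4, a transcription factor that binds C/EBP-ATF response elements and switches on amino acid synthesis, amino acid transport and many cytosolic synthetase genes. Synthetase genes are also known targets of MYC. HSCs are known for a low rate of protein synthesis.

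The start regions of these genes show which of them carry the letters those factors are known to bind. RefSeq start regions on GRCm38.p6, which run from 250 bases before to 50 bases after each start, were at hand for 26 of the 35 genes. The response element was searched as TGATGNAA and the E-box bound by MYC as CACGTG, both on either strand; in the windows shown no match of one overlapped a match of the other. The response element lay in 5 of 12 cytosolic genes and in 0 of 14 mitochondrial genes, against 4.51% of all 27025 genes with a start region. For each gene 1 window of 30 bases that holds it is given on the gene's strand with the match in capitals. 
Iars: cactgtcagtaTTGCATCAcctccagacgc
Yars: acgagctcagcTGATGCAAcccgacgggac
Tars: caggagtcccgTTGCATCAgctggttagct
Gars: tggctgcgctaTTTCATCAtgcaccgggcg
Aars: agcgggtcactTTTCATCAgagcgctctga

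The Iars window is chr13:49682126-49682155 on the plus strand, with the first base of the match 8 bases into the transcript. For Yars it is chr4:129189895-129189924 (plus strand, match from base 4 of the transcript). For Tars it is chr15:11399655-11399684 on the minus strand, with the match starting 15 bases before the start, and for Gars chr6:55037960-55037989 on the plus strand, 30 bases before it. For Aars, the alanine enzyme, it is chr8:111033840-111033869 on the plus strand, with the match from base 10 of the transcript. In all of these except Yars the element reads in the direction opposite to the gene.

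The E-box lay in 4 of the 12 cytosolic and 1 of the 14 mitochondrial genes with a start region, against 8.09% of all genes with one. Iars, Tars and Aars held both motifs. The E-box windows are shown with the match in capitals, for comparison with the response elements of the same genes. 
Iars: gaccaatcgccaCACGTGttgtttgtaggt
Tars: tccgcctgtggcCACGTGgcgcacgcgcag
Aars: agtcaaccctgtCACGTGacactccatgtc
Farsb: ttagacaggcatCACGTGagacagcccaag
Ears2: cgcgaaggagccCACGTGtgtgtttctagt

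These lay at chr13:49682049-49682078 (plus strand) for Iars, chr15:11399622-11399651 (minus strand) for Tars, chr8:111033684-111033713 (plus strand) for Aars, chr1:78488919-78488948 (minus strand) for Farsb and chr7:122067048-122067077 (minus strand) for Ears2. A match is a stretch of letters and not a measured binding site. The genes that carry the response element did not share a direction: the LRC minus non-LRC differences, on the log2 scale used throughout, were -1.44 for Iars, -0.33 for Yars, -0.08 for Aars, 0.17 for Gars and 0.37 for Tars.

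Array medians lay between 4.33 and 4.39, and 33 of the 35 genes were above 4.33 on every array. Mars2 and Pars2, the mitochondrial methionine and proline enzymes, were below it on all 6, so their differences are weakly measured. The gate was checked by its own genes. Kit, the stem cell factor receptor, was at 9.00 to 9.13 on all arrays, and Cd48 was at 2.34 to 3.27. Cd34, absent by the gate, was at 5.62 to 7.43 on the non-LRC arrays and 2.52, 6.97 and 5.10 on the LRC arrays replicates 1 to 3. B cell, T cell and stromal marker lists had array means of 2.83 to 4.09, and all measured genes of the B and T cell lists were at 3.97 or below. Defining markers of other lineages were not all low: the mean of 5 myeloid markers was 6.01 to 7.10 in non-LRC and 5.03 to 6.16 in LRC, and that of 4 megakaryocyte markers 5.80 to 7.37 and 5.92 to 6.08. For 3 erythroid markers it was 3.63 to 5.14 and 3.62 to 4.70, and for 3 endothelial markers 4.403 to 5.17 and 3.89 to 4.73. LRC replicate 1 correlated least with the other arrays (0.901 to 0.919). Its control probe sets for the 3' and 5' ends of Gapdh mRNA differed by 4.16 (3' minus 5'), against 2.72 to 3.42 on the other arrays. For actin this difference was -0.61 on LRC replicate 3 and -0.23 to -0.04 on the other arrays. The part of these end differences in the results was not tested. Spiked bacterial and phage transcripts that check the hybridization had mean levels of 11.24 and 11.02 on LRC replicates 1 and 3, against 10.58 to 10.70 for the other 4 arrays. Their part in the results was not tested beyond the values given with the single genes and in the closing section. Both arrays with the brighter controls are LRC arrays, so this level is partly confounded with group. A fit with it and a fit without those 2 arrays are therefore not separate checks.

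**Figure D1:**
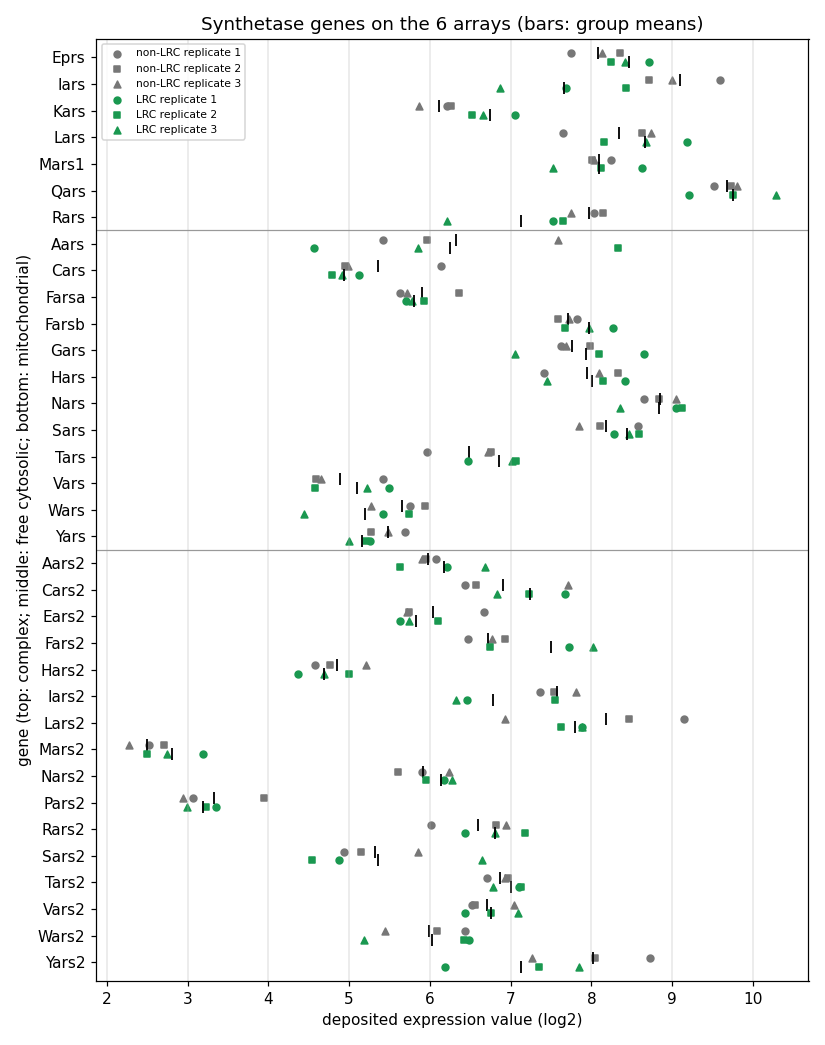
Deposited log2 expression value (horizontal axis) of the 35 synthetase genes (vertical axis) on each of the 3 non-LRC arrays (grey) and 3 LRC arrays (green), with a black bar at each group mean. The 2 groups overlap for all genes except Iars, Kars, Rars and Yars, and all values of Mars2 and Pars2 lie to the left of the rest.

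The comparison of LRC with non-LRC asks whether HSCs that kept the label through the chase carry other amounts of synthetase mRNA than HSCs of the same gate without it. These are bulk values, so fewer cells that express a gene and less RNA of it per cell cannot be told apart. By limma with Benjamini-Hochberg adjustment over all probe sets, 0 of 35 genes passed an adjusted p of 0.05, where 0% of all 18193 genes did. The smallest adjusted p among the synthetases was 0.998. At limma's unadjusted p under 0.05 there were 2 of 35 genes (Iars and Kars), where 3.75% of all genes were under it. Groups did not overlap for 4 of 35 genes, where 8.32% of all genes showed the same, so these shares were near the background. The 4 comprised 3 genes lower in LRC (3.62% of all genes) and 1 higher (4.71%). A difference of at least 2-fold together with the unadjusted p held for 1 gene, Iars, and for 1.68% of all genes.

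As a set the synthetases lay where other genes lay. A lower mean in LRC was found for 15 of 35, against 45.1% of all genes, and the median difference was 0.05 against 0.03 over all genes. Among the cytosolic enzymes 9 of 19 had a lower mean (median difference 0.06), and among the mitochondrial enzymes 6 of 16 did (median difference 0.05). The differences of the cytosolic genes ran from -1.44 to 0.63 and those of the mitochondrial genes from -0.89 to 0.77. All 4 genes with separate groups were cytosolic, and 3 of them belong to the multi-synthetase complex. Over all genes the share with separate groups was 8.32%. Whether the cytosolic or complex genes exceed that share was not tested.

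**Figure D2:**
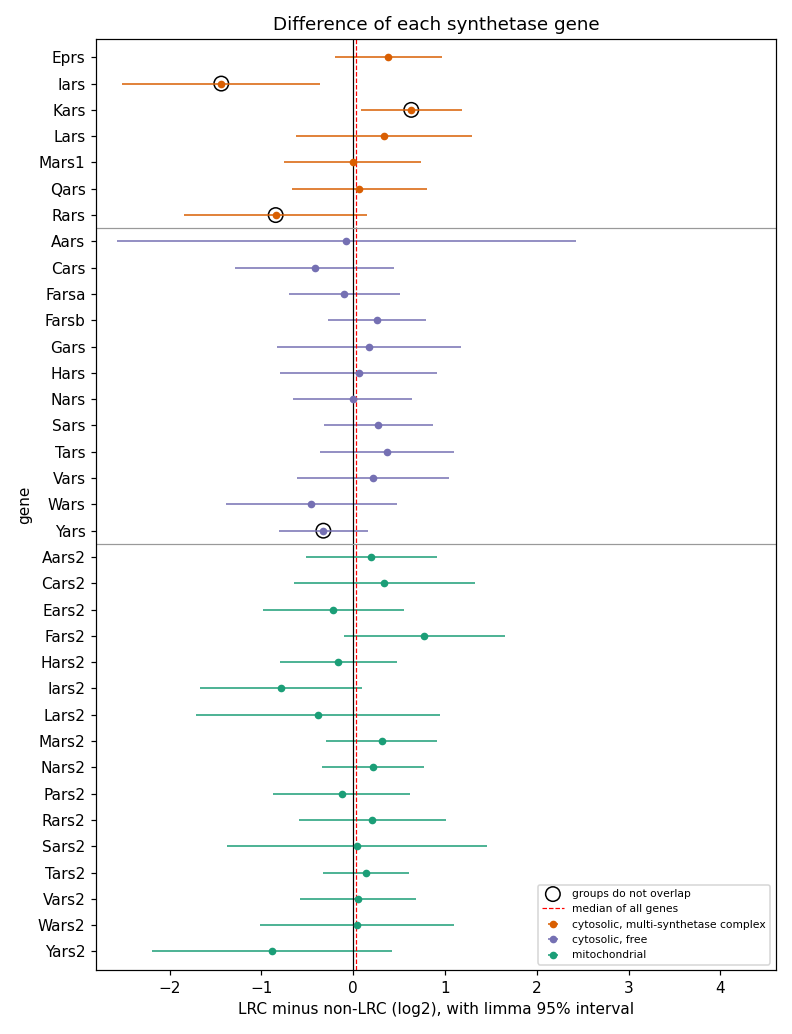
LRC minus non-LRC difference (log2, horizontal axis) of each synthetase gene with limma's 95% interval, coloured by compartment and membership of the multi-synthetase complex; circles mark genes whose groups do not overlap and the dashed line is the median of all genes. The intervals of Iars and Kars leave out 0 before adjustment, and those of the other 33 genes include it.

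The 7 measured enzymes of the multi-synthetase complex were the most spread out. Iars, which charges isoleucine, was at 9.59, 8.71 and 9.00 on non-LRC replicates 1 to 3 and 7.69, 8.43 and 6.86 on LRC replicates 1 to 3, an order kept for the genes that follow. Every LRC value lay below every non-LRC value. The means were 9.10 ± 0.45 and 7.66 ± 0.78 (SD, n = 3 each), which makes LRC 2.71-fold lower. The difference was -1.44 (standard error, SE, 0.45; 95% interval -2.52 to -0.36) with a limma adjusted p of 0.998. It lay between -1.82 and -1.04 when single arrays were left out, at -1.04 once the level of the hybridization controls entered the fit, and at -0.67 with LRC replicates 1 and 3 left out, which leaves a single LRC array. The other probe set of Iars differed by -0.15 (SE 0.29) with overlapping groups, so the larger difference rests on 1 of 2 probe sets.

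Rars, the arginine enzyme of the complex, was at 8.03, 8.15 and 7.74 on the non-LRC arrays and 7.52, 7.65 and 6.21 on the LRC arrays. The groups did not overlap, but 2 LRC arrays came within 0.5 of the lowest non-LRC value and replicate 3 was far below. The difference was -0.85 (SE 0.41, interval -1.84 to 0.15; limma adjusted p = 0.998), and it was -0.39 without LRC replicate 3 and -0.32 without LRC replicates 1 and 3.

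Kars, the lysine enzyme, went the other way, at 6.21, 6.26 and 5.86 on the non-LRC arrays and 7.05, 6.52 and 6.65 on the LRC arrays. Every LRC value lay above every non-LRC value, and both groups were tight, at 6.11 ± 0.22 and 6.74 ± 0.27 (SD, n = 3 each). The difference was 0.63, a 1.55-fold higher level (SE 0.23, interval 0.08 to 1.18; limma adjusted p = 0.998), and it stayed between 0.48 and 0.74 when single arrays were left out. Adding the level of the hybridization controls to the fit gave 0.37, and leaving out LRC replicates 1 and 3 gave 0.41. Kars is read by 1 probe set.

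Eprs, a double enzyme for glutamate and proline, was at 7.75, 8.36 and 8.13 on the non-LRC arrays and 8.72, 8.25 and 8.42 on the LRC arrays. Its groups overlapped through LRC replicate 2, and the difference was 0.38 (SE 0.24). Its 4 probe sets disagreed: 1 of the other 3 differed by -0.31, with every LRC value below every non-LRC value. Lars, for leucine, differed by 0.33 (SE 0.40), Qars, for glutamine, by 0.07 (SE 0.30) and Mars1, for methionine, by -0.01 (SE 0.31), all with overlapping groups.

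The scaffold of the complex was read from 3 genes, of which 0 passed. Eef1e1, which encodes the scaffold protein AIMP3, was at 7.07, 6.58 and 6.88 on the non-LRC arrays and 5.19, 6.49 and 5.43 on the LRC arrays. Its groups did not overlap, although LRC replicate 2 came close to the lowest non-LRC value, and the difference was -1.14 (SE 0.37; limma adjusted p = 0.998). Aimp1 differed by -0.18 and Aimp2 by 0.10, both with overlapping groups. By the probe sets used, lower values of Iars, Rars and Eef1e1 within the complex stood beside higher or near-equal values of Kars, Eprs, Lars, Qars and Mars1. This split was less clear by other probe sets: that of Iars differed by -0.15 with overlapping groups. For Eprs 1 of the other 3 was lower, at -0.31, and 2 were higher.

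Of the 12 free cytosolic enzymes 6 had a lower and 6 a higher mean in LRC, and their differences ran from -0.46 to 0.37. Yars, for tyrosine, was the 1 gene of these with separate groups, at 5.69, 5.27 and 5.48 on the non-LRC arrays and 5.25, 5.21 and 4.998 on the LRC arrays. The gap between the groups was small, and the difference was -0.33 (SE 0.20, interval -0.81 to 0.16; limma adjusted p = 0.998). Tars, for threonine, was at 5.96, 6.76 and 6.72 on the non-LRC arrays and 6.48, 7.06 and 7.02 on the LRC arrays, so that the groups overlapped through non-LRC replicates 2 and 3 and LRC replicate 1. Its difference was 0.37 (SE 0.30).

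Aars varied more than any other synthetase within a group, with an SE of 1.03. It was at 5.42, 5.96 and 7.59 on the non-LRC arrays and 4.56, 8.33 and 5.85 on the LRC arrays. Both the lowest and the highest of the 6 values were LRC arrays, and the difference of -0.08 has an interval from -2.58 to 2.42. Its other probe set differed by -0.53 (SE 0.47).

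The remaining free enzymes differed by less than their errors or little more. Wars, for tryptophan, differed by -0.46 (SE 0.38), Cars, for cysteine, by -0.42 (SE 0.36; -0.029 without non-LRC replicate 1), Sars, for serine, by 0.27 (SE 0.25), Vars, for valine, by 0.21 (SE 0.34), Gars, for glycine, by 0.17 (SE 0.41), and Hars, for histidine, by 0.06 (SE 0.35). Nars, for asparagine, had nearly equal means, with a difference of -0.01 (SE 0.27). Its other probe set was lower on every LRC array than on any non-LRC array, at -0.86 (SE 0.30). The phenylalanine enzyme is built from 2 kinds of subunit. Farsb, which encodes its beta subunit, differed by 0.26 (SE 0.22), and its 3 further probe sets went the same way, at 0.24 to 0.74. Farsa, which encodes the alpha subunit, differed by -0.10 (SE 0.25), and its other probe sets by -1.31, -0.32 and 0.02.

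None of the 16 mitochondrial enzymes had separate groups, where 8.32% of all genes did. Iars2, the mitochondrial isoleucine enzyme, was at 7.36, 7.54 and 7.81 on the non-LRC arrays and 6.46, 7.55 and 6.32 on the LRC arrays. LRC replicates 1 and 3 were about a log2 unit below the lowest non-LRC array and replicate 2 was level with the non-LRC group. The difference was -0.79 (SE 0.37; limma adjusted p = 0.998). The same 2 LRC arrays had the brighter hybridization controls: the difference was -0.16 once the level of those controls entered the fit and -0.013 with both arrays left out.

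Fars2, the mitochondrial phenylalanine enzyme, showed the mirror pattern, at 6.47, 6.92 and 6.77 on the non-LRC arrays and 7.72, 6.74 and 8.02 on the LRC arrays. Replicates 1 and 3 were high and replicate 2 lay among the non-LRC values. The difference was 0.77 (SE 0.36), but 0.26 with the level of the hybridization controls in the fit and 0.017 with LRC replicates 1 and 3 left out. The second probe set, below the lowest array median on 4 of 6 arrays, went the other way, at -0.50. Yars2, for tyrosine, was at 8.73, 8.04 and 7.27 on the non-LRC arrays and 6.18, 7.35 and 7.84 on the LRC arrays. The groups overlapped widely, and the difference was -0.89 (SE 0.54), between -1.26 (without non-LRC replicate 3) and -0.42 (without LRC replicate 1) when single arrays were left out. Mars2, near the floor, was at 2.52, 2.71 and 2.27 on the non-LRC arrays and 3.19, 2.50 and 2.74 on the LRC arrays, a difference of 0.31 (SE 0.25).

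The other 12 mitochondrial enzymes differed by -0.38 to 0.34. Lars2, for leucine, differed by -0.38 (SE 0.55), and its non-LRC arrays alone ran from 6.93 to 9.14. Both other probe sets of Lars2 had the same sign, at -0.75 and -0.46. Cars2, for cysteine, differed by 0.34 (SE 0.41), while its other probe sets differed by -1.48 and -0.18. Ears2, which charges glutamate in mitochondria, differed by -0.22, Hars2 by -0.16 and Pars2 by -0.13. Nars2, Rars2, Aars2, Tars2, Vars2, Wars2 and Sars2 differed by 0.22, 0.21, 0.20, 0.14, 0.05, 0.04 and 0.04.

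Across the 13 amino acids with a cytosolic and a mitochondrial gene measured under matching names, the 2 differences had the same sign for 5 and opposite signs for 8. Isoleucine and tyrosine were the 2 amino acids with lower means of both genes, at -1.44 and -0.79 for Iars and Iars2 and at -0.33 and -0.89 for Yars and Yars2. For arginine, Rars differed by -0.85 and Rars2 by 0.21. Synthetases fall into 2 unrelated catalytic folds, class I and class II. Of 18 class I genes 10 had a lower mean in LRC (median difference -0.11), and of 16 class II genes 5 did (median difference 0.15), with Eprs, which holds both folds, left out. Of the 4 genes with separate groups the 3 lower ones were class I and Kars was class II. The classes were not compared by a test.

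Probe sets of the same gene gave a view of the measurement itself. Of the 35 genes 12 had 1 probe set and 23 had more. All other probe sets had the sign of the one used in 10 genes, some in 5 (Eprs, Farsa, Qars, Wars and Ears2) and none in 8 (Cars, Hars, Sars, Cars2, Fars2, Hars2, Iars2 and Tars2). Some of the disagreeing probe sets were dim: that of Iars2 and 1 of the 2 of Cars2 were below the lowest array median on all 6 arrays, that of Fars2 on 4, and those of Cars and Hars2 on 3. For 5 genes the probe set used was of a kind whose probes may bind other transcripts too, by its name ending in _x_at (Farsb, Qars, Wars, Tars2 and Yars2). For 2 others, Eprs and Sars, the name ended in _s_at, a kind open to the same caution.

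**Figure D3:**
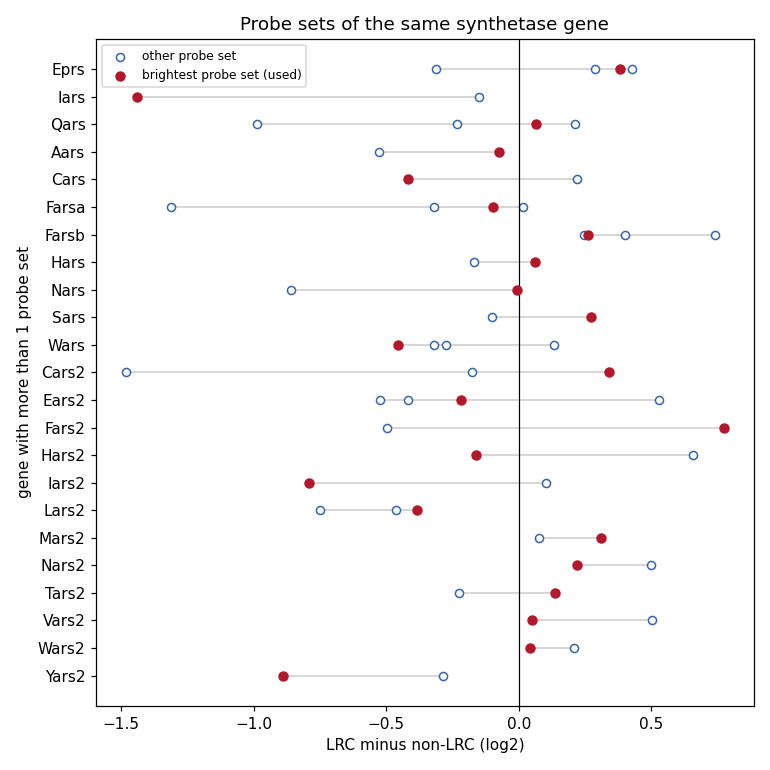
LRC minus non-LRC difference (log2, horizontal axis) of every probe set of the 23 synthetase genes with more than 1 (vertical axis); filled points are the brightest probe set, which represents the gene, and open points the others. For 8 genes all open points lie on the other side of 0 from the filled point.

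How much could have been missed can be read from the intervals. For 17 of the 35 genes limma's 95% interval lay wholly between -1 and 1, so a 2-fold difference in either direction was outside it. For the other 18, among them Iars, Rars, Aars, Lars and Iars2, it reached beyond. These intervals hold for the probe set used only. The 17 include Mars2 and Pars2, which were below the lowest array median on all 6 arrays and are weakly measured. They also include Farsa and Nars. Other probe sets of these differed by -1.31 (interval -2.87 to 0.24) for Farsa and -0.86 (interval -1.59 to -0.12) for Nars. Arrays were simulated over 45037 probe sets for LRC against non-LRC, with noise drawn independently from each probe set's own spread. Changes were put into 50 probe sets per size, drawn at random. At an adjusted p of 0.05, 0% of log2 changes of 1 and 46% of changes of 2 were recovered, and 8 unchanged probe sets were called. In that setting single 2-fold changes were not detectable by that threshold. Recovery for the synthetases themselves was not tested.

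The rest of the charging pathway was read from lists chosen for their roles. These lists, and the ATF4 target and proliferation lists below, were chosen with earlier results of these data known. Of 12 accessory genes of tRNA charging 0 passed and 6 had a lower mean, with a median difference of 0.01. Those with the smallest p were Aarsd1, which removes wrongly attached serine from alanine tRNA, at -0.61 (SE 0.45), Xpot, the tRNA exporter of the nucleus, at -0.57 (SE 0.44), and Sepsecs, which makes selenocysteine on its tRNA, at 0.48 (SE 0.43). Of 9 elongation factors, which bring charged tRNA to the ribosome or move it on, 0 passed. Tufm, the mitochondrial factor, differed by 0.46 (SE 0.23), Eef1b2 by -0.21 (SE 0.19, groups separate) and Tsfm by 0.25 (SE 0.24), and the list's median difference was -0.03. Tarsl2, a further cytosolic threonine enzyme, was at 3.12 to 4.41 and differed by 0.25 (SE 0.40).

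Genes that sense uncharged tRNA and act on eIF2 also had 0 of 6 past the threshold, with a median difference of -0.09. Eif2ak4, which encodes GCN2, was at 6.74, 6.23 and 6.40 on the non-LRC arrays and 5.87, 6.36 and 6.46 on the LRC arrays, a difference of -0.23 (SE 0.25). Atf4 was at 10.45, 10.20 and 10.19 on the non-LRC arrays and 10.77, 10.48 and 10.19 on the LRC arrays, a difference of 0.20 (SE 0.22). The groups overlapped for both. Control of ATF4 lies largely in its translation, which these values do not show. Ppp1r15b, a subunit of an eIF2 phosphatase, differed by -0.48 (SE 0.32) and Gcn1, an activator of GCN2, by -0.26 (SE 0.31). The only other probe set of Eif2ak4 and that of Ppp1r15b differed in the other direction. So did 1 of the 2 others of Atf4 and 2 of the 4 others of Gcn1.

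Of 26 measured ATF4 target genes 0 passed, 18 had a lower mean in LRC and the median difference was -0.28, against 45.1% lower and a median of 0.03 over all genes. At limma's unadjusted p under 0.05 there were 3 of 26, in both directions, where 3.75% of all genes were under it. Trib3, a pseudokinase induced by ATF4, was at 6.14, 7.77 and 7.28 on the non-LRC arrays and 8.52, 8.53 and 9.29 on the LRC arrays. All LRC values were higher, by 1.72 on average (SE 0.46; limma adjusted p = 0.998). Psat1, of serine synthesis, differed by -1.14 (SE 0.42) and Slc7a5, a transporter of large neutral amino acids, by -1.35 (SE 0.55), both with overlapping groups. Asns, asparagine synthetase, was at 6.31, 7.02 and 6.60 on the non-LRC arrays and 3.08, 6.29 and 6.26 on the LRC arrays. The groups just separated, LRC replicate 1 lay far below the other 5 arrays, and the difference was -1.43 (SE 0.88). The median of the list was 0.05 once the level of the hybridization controls entered the fit, and 0.17 with LRC replicates 1 and 3 left out; it lay between -0.53 (without LRC replicate 2) and -0.17 (without non-LRC replicate 2) when single arrays were left out.

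The synthetases stood beside proliferation genes that had lower values in LRC. Of 14 such genes 0 passed and 13 had a lower mean (45.1% of all genes). Separate groups with lower LRC values were found for 8 (3.62% of all genes). The median difference was -0.91, where that of the 35 synthetases was 0.05. The list was chosen with earlier results of these data known, so these shares describe it and are not a test. Mki67, the proliferation antigen, was at 10.13, 9.78 and 10.78 on the non-LRC arrays and 7.70, 9.95 and 10.05 on the LRC arrays, a difference of -0.997 (SE 0.67). Cdc20, Bub1 and Mcm6, genes of mitosis and of the replicative helicase, had the smallest p of the list, with Cdc20 at -2.52 (SE 0.41), Bub1 at -1.03 (SE 0.29) and Mcm6 at -0.62 (SE 0.20). The Bub1 probe set was below the lowest array median on all 6 arrays and a second probe set differed in the other direction, so the Bub1 difference is weakly measured. For Mcm6 1 of the 2 other probe sets differed in the other direction, and for Cdc20 the 2 others had the same sign. Cdc20 and Mcm6 were both read from probe sets of the _x_at kind. Myc was at 9.35, 9.84 and 9.30 on the non-LRC arrays and 8.15, 9.47 and 8.59 on the LRC arrays, a difference of -0.76 (SE 0.37) with groups that overlapped through LRC replicate 2. The median of the proliferation list was -0.44 once the level of the hybridization controls entered the fit, -0.47 with LRC replicates 1 and 3 left out, -0.57 when the probe sets of each gene were averaged and -0.59 with _s_at and _x_at probe sets left out where another existed.

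**Figure D4:**
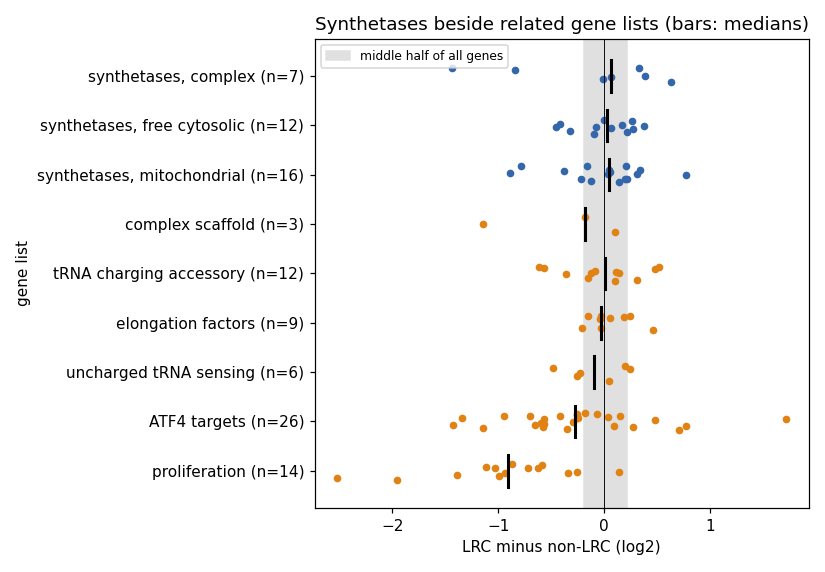
LRC minus non-LRC difference (log2, horizontal axis) of each gene (points) in the synthetase groups (blue) and related lists (orange), with a black bar at each median and the interquartile range of all genes in grey. The medians of the 3 synthetase groups lie near 0, at 0.03 to 0.07, while that of the proliferation genes is -0.91.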

How the data were processed

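The authors deposited log2 expression values, 1 per probe set and array, from biotin-labelled RNA amplified in 2 rounds, per the labels' protocols. RMA is named in the submitters' processing notes without a version, and the log base was inferred from the range of the values (1.22 to 14.0). RMA equalizes the distributions of the arrays, so a change in total RNA per cell is not visible. Arrays carry no depth; precision is limited by the number of arrays.

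Of 45101 probe sets 64 controls were left out. The platform annotation gave 1 gene symbol for 34945 of the 45037 others, several for 932 and none for 9160; symbols were updated by gene identifier to RefSeq on GRCm38.p6. The fit of LRC minus non-LRC used lmFit and eBayes of limma 3.58.1 under R 4.3.3 with no covariate, adjusting over all 45037 probe sets. Replicate p-values measure the spread between these samples. The fit was tested on simulated data. Members and lists were chosen with earlier results of these data known. Values on every array are given for synthetases with an unadjusted p under 0.05 or separate groups, filled by smallest p to 10, for Aars, chosen after its values were seen, and for Atf4, Asns, Eif2ak4, Myc and Mki67; up to 3 genes of each list are named by smallest p, and further ones were chosen after their values were seen. Listed genes without a probe set of their own are not analysed here. Alternatives are given in the closing section; columns of other samples numbered 0. Of several motif matches in a start region the one nearest the start is shown; 1 sequence window is not reported here.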

Additional observations from a re-analysis of the deposited data

How the results depend on the processing

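No synthetase gene and no probe set passed an adjusted p of 0.05 under any alternative tried; at an adjusted p of 0.1 the counts were 0 as well. The unadjusted p under 0.05 took in 1673 probe sets and 2 synthetase genes, or 774 and 1 when at least a 2-fold change was asked for too. The number of synthetases with a lower mean was 13 to 18 when single arrays were left out. The cytosolic median of 0.06 was then -0.049 to 0.24 (highest without LRC replicate 3) and was -0.15 with array weights; the mitochondrial median of 0.05 was then -0.042 to 0.17. The direction of both medians is therefore not settled. The cause of these shifts was not tested.

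The replicate number as a block gave 0 calls. The medians stayed at 0.06 and 0.05, because a block cannot change the differences when each group holds every number. Samples of the same number correlated at 0.08, 0.14 and 0.08 in their deviations from the group means, and each LRC array correlated best with its own number, as a hint from the data; the numbers are not treated as pairs.

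Without single arrays 18 of 35 genes kept the sign of their difference. The ranges of the 17 others were -1.12 to 0.77 for Aars, -0.24 to 0.13 for Farsa, -0.19 to 0.61 for Gars, -0.20 to 0.34 for Hars, -0.012 to 0.59 for Lars, -0.28 to 0.28 for Mars1, -0.15 to 0.24 for Nars, -0.20 to 0.34 for Qars, -0.055 to 0.47 for Aars2, -0.38 to 0.10 for Ears2, -0.32 to 0.016 for Hars2, -1.01 to 0.10 for Lars2, -0.32 to 0.18 for Pars2, -0.080 to 0.40 for Rars2, -0.61 to 0.44 for Sars2, -0.11 to 0.22 for Vars2 and -0.23 to 0.46 for Wars2. With LRC replicates 1 and 3 left out, the lone LRC array assumed to vary like the non-LRC arrays, 13 signs turned: Aars 2.00, Farsa 0.020, Farsb -0.042, Lars -0.19, Mars1 0.018, Nars 0.27, Vars -0.30, Wars 0.081, Aars2 -0.35, Ears2 0.063, Hars2 0.15, Mars2 -0.0031 and Sars2 -0.77. Adding the level of the hybridization controls to the fit turned 10: Aars 1.96, Farsa 0.042, Farsb -0.044, Lars -0.050, Nars 0.13, Vars -0.33, Aars2 -0.17, Hars2 0.19, Mars2 -0.024 and Sars2 -0.23. All 10 are among the 13 that turned without LRC replicates 1 and 3, the arrays with the brighter controls, so this is not a separate check. Array weights turned Gars (-0.15), Hars (-0.22) and Wars2 (-0.11), and a second quantile normalization Mars1 (0.013) and Nars (0.035). The mean of all probe sets turned Hars (-0.054), Qars (-0.24), Cars2 (-0.44), Hars2 (0.25) and Tars2 (-0.045). Leaving out probe sets of the _s_at and _x_at kinds where another existed, chosen after seeing the data, turned Eprs (-0.31), Qars (-0.23), Sars (-0.10), Wars (0.13) and Tars2 (-0.23). Median centring turned none. The filter on low values, trend and robust moderation and the block leave the differences themselves unchanged, so no sign could turn under them. Iars, Kars, Rars and Yars kept their signs under all of these. Because their groups did not overlap, leaving out or weighting arrays could not have turned them. Kars, Rars and Yars have no other probe set, so the choice of probe set could not either.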
